A study of Mus musculus with 6 samples.

Results

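The catecholamine synthesis and storage genes are the enzymes that turn tyrosine into adrenaline, the transporters and the electron carrier of the chromaffin granule, and transcription factors of chromaffin cells. The 9 genes described were Th, Ddc, Dbh, Pnmt, Slc18a1, Slc18a2, Cyb561, Phox2a and Hand2, chosen by symbol and matched to Ensembl identifiers among the 54532 genes of a table of deposited read counts. Transcripts were measured by bulk RNA sequencing of whole mouse adrenal glands, in 3 samples labelled VEGF/LysM and 3 labelled WT. The series text states the aim as learning what VEGF-A from macrophages does to the whole gland. LysM is another name of the myeloid gene Lyz2, whose locus commonly drives Cre in macrophages and neutrophils. The labels give neither the allele nor the age, sex or number of animals behind a sample. Nothing says that the replicates were separate animals, so p-values cover only the variation among these 6 samples, part of which may be technical.

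Chromaffin cells fill the medulla, the core of the gland. In them tyrosine hydroxylase (Th) makes DOPA, aromatic amino acid decarboxylase (Ddc) makes dopamine, and dopamine beta-hydroxylase (Dbh), inside the granule, makes noradrenaline. Phenylethanolamine N-methyltransferase (Pnmt) methylates noradrenaline to adrenaline, and its expression is known to be kept up by glucocorticoids that reach the medulla from the surrounding cortex. Sympathetic ganglion neurons share the pathway as far as noradrenaline and lack Pnmt. In bulk samples, fewer cells of a type and less RNA per cell cannot be told apart.

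VEGF/LysM and WT glands did not differ beyond their spread in any of the 9 genes, and no other gene was called either. The clearest structure lay between single libraries. Th and Dbh kept an almost fixed proportion in every library. Pnmt stood at more than the Th count in VEGF/LysM replicate 1 alone. Ddc followed the markers of ganglion neurons, and less closely those of Schwann and sustentacular cells, from library to library, and its correlation with chromaffin markers was near 0.

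Upstream sequence is given for Th and Dbh because their levels moved together, and for both annotated starts of Ddc because its level did not move with them. The promoter windows, from RefSeq (GRCm38.p6), were matched by symbol for 6 of the 9 genes, and those of Pnmt, Slc18a1 and Cyb561 were not used here. Each line below is the 250 bases before the RefSeq start, 5′ to 3′ on the gene's strand. The gene spans given further below are from GENCODE. They reach farther upstream for Th and Dbh, so the windows of these genes lie inside them. They lie at chr7:142899996-142900245 (minus strand, Th), chr2:27165257-27165506 (plus, Dbh), chr11:11898145-11898394 (minus, the first Ddc start) and chr11:11890409-11890658 (minus, the second). Capitals mark ATTA, the core that homeodomain factors such as Phox2a prefer, and TGACGTCA, the cyclic AMP response element, on either strand.
Th: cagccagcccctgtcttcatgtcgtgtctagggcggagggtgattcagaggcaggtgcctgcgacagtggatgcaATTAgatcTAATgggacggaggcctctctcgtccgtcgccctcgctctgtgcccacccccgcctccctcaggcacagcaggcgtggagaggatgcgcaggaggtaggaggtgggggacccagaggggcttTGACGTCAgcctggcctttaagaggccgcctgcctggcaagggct
Dbh: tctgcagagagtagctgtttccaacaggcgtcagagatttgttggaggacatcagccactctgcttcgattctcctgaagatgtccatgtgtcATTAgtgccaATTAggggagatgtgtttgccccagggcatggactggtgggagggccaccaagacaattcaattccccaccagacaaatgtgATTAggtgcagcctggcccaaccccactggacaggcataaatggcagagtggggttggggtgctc
Ddc start 1: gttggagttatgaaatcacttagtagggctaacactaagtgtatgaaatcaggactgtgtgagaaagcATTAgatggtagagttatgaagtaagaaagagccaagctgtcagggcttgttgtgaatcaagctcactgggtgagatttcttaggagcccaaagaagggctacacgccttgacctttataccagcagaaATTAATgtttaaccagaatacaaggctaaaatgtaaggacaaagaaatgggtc
Ddc start 2: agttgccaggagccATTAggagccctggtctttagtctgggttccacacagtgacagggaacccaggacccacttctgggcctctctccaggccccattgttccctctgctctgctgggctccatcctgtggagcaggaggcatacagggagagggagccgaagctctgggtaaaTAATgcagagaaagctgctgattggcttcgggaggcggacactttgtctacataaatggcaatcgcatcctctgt

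ATTA occurred 2 times in the Th window and 3 times in the Dbh window. It occurred 3 times before the first Ddc start, where 2 matches overlap, and 2 times before the second. At least 1 ATTA was found in 54.9% of 32851 promoter windows of the same length, so its presence is common. TGACGTCA was found in 1.55% of the windows and, among these 4, in Th, where it spans bases -45 to -38 counted back from the start. The E-box CANNTG, the class of motif that Hand2 and its partners bind, was present in 66.2% of all windows, once in Th, 2 times in Dbh and in neither Ddc window. Of the matched windows not printed, that of Slc18a2, whose level ran with Ddc (Pearson's r = 0.852), held 1 ATTA and 1 E-box. That of Phox2a, whose level ran with Th (r = 0.809), held 0 of each motif. That of Hand2 (r = 0.745 with Th) held 5 ATTA and 2 E-boxes. Whether these motifs go with the levels was not tested. Each count is a match of letters, not a measured binding site. The 2 Ddc starts lie 7736 bases apart. In the rat, separate first exons of Ddc serve neuronal and non-neuronal tissue, and a count per gene adds up whatever starts were used.

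The libraries held 16476879 to 18671950 counts, and the 9 genes had between 328 (Phox2a) and 12424 (Th) counts in a library. Each of 10 chromaffin markers and each of 10 cortex markers had counts in every library, as the label of the tissue implies. The chromaffin markers summed to 6083 to 9545 counts per 1000000 (CPM, TMM-scaled) in VEGF/LysM and 3552 to 7466 CPM in WT. WT replicate 3 stood apart, with 67480 CPM of 10 hepatocyte markers and 42.7 CPM of 10 kidney tubule markers. It also held 332 CPM of 8 lymphocyte markers, against 14.6 to 36.1 CPM in the other libraries. Its chromaffin sum (3552 CPM) and cortex sum (29410 CPM) were the lowest of all libraries. Hepatocyte markers summed to 134 to 918 CPM in VEGF/LysM and 235 and 354 CPM in WT replicates 2 and 1. The kidney list summed to 0.937 to 4.82 CPM in VEGF/LysM, with 6, 8 and 1 of its genes at 0 in replicates 1, 2 and 3, and to 1.02 and 1.29 CPM in WT replicates 1 and 2, with 7 at 0 in each. VEGF/LysM replicate 3 had the second-highest sum in the hepatocyte and kidney lists.

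edgeR's quasi-likelihood test called 0% of the 16300 genes at an adjusted p of 0.05, and 2.82% had an unadjusted p under 0.05. Of the 9 catecholamine genes, all of which passed the filter on low counts, 0 were called and 0 had an unadjusted p under 0.05. The groups overlapped for each of the 9, while over all genes 5.95% did not overlap. The fitted log2 fold change (VEGF/LysM minus WT) was above 0 for 7 of the 9 and below 0 for 2, with a median of 0.18. Over all genes the median was 0.0013 and 49.7% lay below 0. The number below 0 among the 9 ranged from 1 to 6 when 1 library was left out, and it was 7 with WT replicate 3 and VEGF/LysM replicate 3 both left out.

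**Figure D1:**
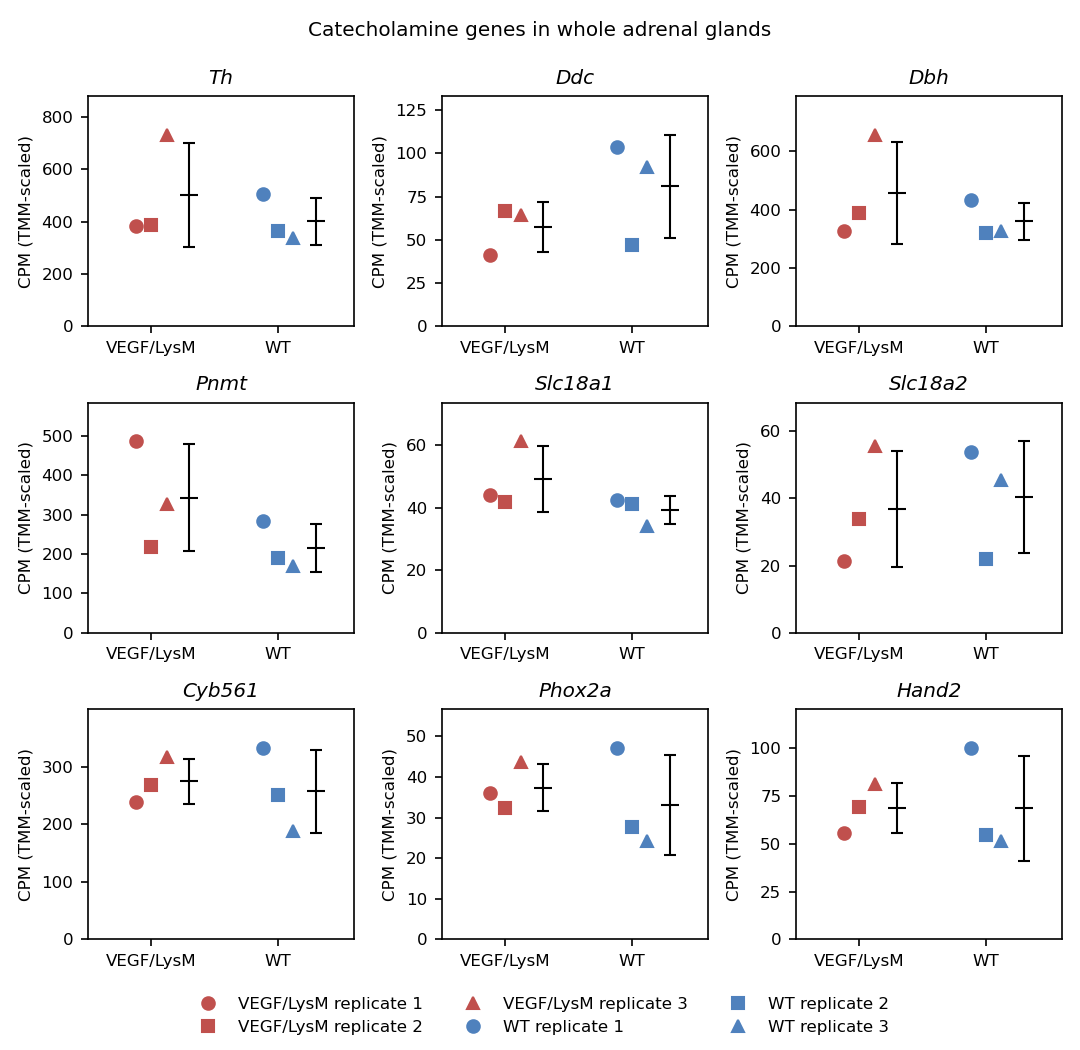
TMM-scaled CPM of the 9 genes in each library, VEGF/LysM on the left and WT on the right of each panel, with the group mean and SD (n = 3) as black bars. The groups overlap in every panel. VEGF/LysM replicate 3 is the highest library for Th and Dbh, VEGF/LysM replicate 1 for Pnmt and WT replicate 1 for Ddc.

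Th encodes the rate-limiting enzyme of the pathway (ENSMUSG00000000214, chromosome 7, 142892752 to 142931128, minus strand, GRCm38). It stood at 385, 387 and 731 CPM in VEGF/LysM and at 505, 363 and 338 CPM in WT. VEGF/LysM replicate 3 was the highest of all 6 libraries, and the other VEGF/LysM values lay inside the WT range. The means were 501 ± 199 CPM in VEGF/LysM and 402 ± 89.9 CPM in WT (SD, n = 3 each), a log2 fold change of 0.32 ± 0.31 (SE) with a 95% interval of -0.41 to 1.05 (edgeR, adjusted p = 0.999). Without VEGF/LysM replicate 3 the log2 fold change of Th was -0.057. That library also had the highest chromaffin marker sum, 9545 CPM.

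Dbh, the granule enzyme that makes noradrenaline (ENSMUSG00000000889, chromosome 2, 27165233 to 27183200, plus strand), had the same shape. It stood at 326, 388 and 656 CPM in VEGF/LysM and at 432, 320 and 326 CPM in WT, again highest in VEGF/LysM replicate 3. Its log2 fold change was 0.35 ± 0.29 (SE; interval -0.34 to 1.04), and -0.0069 without VEGF/LysM replicate 3. The count ratio of Dbh to Th was 0.848, 1.0 and 0.897 in VEGF/LysM and 0.855, 0.882 and 0.964 in WT. Across the 6 libraries the highest ratio was 1.18 times the lowest, although Th itself varied 2.16-fold and Dbh 2.05-fold.

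Pnmt, the last enzyme (ENSMUSG00000038216, chromosome 11, 98386450 to 98388181, plus strand), had the largest log2 fold change of the 9. Its levels were 486, 217 and 327 CPM in VEGF/LysM and 284, 191 and 169.7 CPM in WT. VEGF/LysM replicate 1 was the highest library and VEGF/LysM replicate 2 lay inside the WT range. The means were 343 ± 135 CPM in VEGF/LysM and 215 ± 60.9 CPM in WT (SD, n = 3 each). The log2 fold change was 0.67 ± 0.33 (SE) with an interval of -0.12 to 1.47 and did not pass over all genes (edgeR, unadjusted p = 0.0839, adjusted p = 0.999). Without VEGF/LysM replicate 1 it was 0.32, and over all fits that left out 1 library it ranged from 0.32 to 0.93.

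The Pnmt to Th count ratio sets the adrenaline-forming enzyme against the enzyme that starts the pathway, and it does not depend on how libraries are scaled. It was 1.26, 0.56 and 0.447 in VEGF/LysM and 0.563, 0.527 and 0.502 in WT. The WT libraries lay close together, at 0.531 ± 0.0309, while the VEGF/LysM libraries averaged 0.756 ± 0.442 (SD, n = 3 each). VEGF/LysM held both the highest and the lowest ratio of the 6. The mean log2 ratio differed by 0.36 (two-sided exact permutation test, p = 0.8, where 0.1 is the smallest p that 3 against 3 can give). Without VEGF/LysM replicate 1 the difference was -0.084, so its direction rested on that library. Per length of exons, the Pnmt to Th ratio was 2.58, 1.15 and 0.915 in VEGF/LysM and 1.15, 1.08 and 1.03 in WT.

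In VEGF/LysM replicate 1 the high Pnmt did not go with high Th or Dbh. That library had 385 CPM of Th, 326 CPM of Dbh and 6083 CPM of chromaffin markers, each within the WT range. It held the highest sum of the 10 cortex markers, 57330 CPM, against 47200 and 51000 CPM in the other VEGF/LysM libraries and 53020, 48180 and 29410 CPM in WT. It also held the lowest sum of 8 ganglion neuron markers, 22.8 CPM. The sum of 8 adipocyte markers was lowest there too, at 2701 CPM against 4734 to 6126 CPM in the other libraries. These markers differed among themselves. Adipoq, Cidec, Cfd, Retn and Car3 were lowest in that library, Lep was highest there (55.7 CPM), and Plin1 and Ucp1 lay in between. Among 10516 genes with a mean of at least 10 CPM, the 5 most like Pnmt by Pearson correlation of log2 CPM over the 6 libraries were Gnat2 (r = 0.991), Mnt (0.983), Mettl3 (0.98), Dhodh (0.977) and Star (0.97). They were the highest of so many genes over only 6 points, where r this high can arise without a link. Star, the cholesterol carrier of steroid-producing cortex cells, stood at 16990, 11710 and 15190 CPM in VEGF/LysM and at 13380, 12290 and 10810 CPM in WT. It was highest in VEGF/LysM replicate 1 and lowest in WT replicate 3, as was Pnmt. The cortex markers did not share 1 order: of the 10, 3 were highest in VEGF/LysM replicate 1, 3 in WT replicate 1 and 1 in each other library, and 8 were lowest in WT replicate 3. With the cortex sum r was 0.747 for Pnmt, 0.734 for Cyb561 and 0.731 for Phox2a. The part of cortex or adipocyte content in the Pnmt value was not tested.

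Ddc encodes the decarboxylase that makes dopamine (ENSMUSG00000020182, chromosome 11, 11814101 to 11898144, minus strand) and was the gene with the largest fitted difference below 0. It stood at 41.1, 66.8 and 64.4 CPM in VEGF/LysM and at 103, 47.1 and 92.1 CPM in WT. WT replicates 1 and 3 were the 2 highest libraries, while WT replicate 2 lay below 2 of the VEGF/LysM libraries. The means were 57.4 ± 14.2 CPM in VEGF/LysM and 80.9 ± 29.7 CPM in WT (SD, n = 3 each). The log2 fold change was -0.49 ± 0.32 (SE) with an interval of -1.26 to 0.28 (edgeR, adjusted p = 0.999), and -0.27 without WT replicate 1. The Ddc to Th count ratio was 0.107, 0.173 and 0.0881 in VEGF/LysM and 0.205, 0.13 and 0.272 in WT, a 3.09-fold range and the widest of the 8 ratios to Th.

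Ddc ordered the 6 libraries exactly as the ganglion neuron markers did. The 8 markers (Prph, Nefl, Nefm, Nefh, Slc18a3, Elavl4, Gap43 and Stmn2, of which some are also found in chromaffin cells) summed to 22.8, 97.5 and 64.4 CPM in VEGF/LysM and to 251, 29.5 and 159 CPM in WT. Slc18a3, the vesicular acetylcholine transporter, was at 0 in VEGF/LysM replicate 3 and WT replicate 3, and no other marker was at 0 in any library. Over the 6 libraries Pearson's r between log2 Ddc and the log2 sum was 0.991, against -0.142 with the chromaffin marker sum. Th showed the opposite, with 0.145 for the neuron sum and 0.85 for the chromaffin sum. Ddc also ran with the 8 markers of Schwann and sustentacular cells, the glia of nerve and medulla (r = 0.862), which summed to 36.4, 65.6 and 50.7 CPM in VEGF/LysM and to 78.5, 34.6 and 151 CPM in WT. These correlations describe 6 points, and both values of a point come from the same library and share its total and its dissection. With the mean log2 level of the 7 tested neuron markers as a covariate, a fit added after the values were seen, the log2 fold change of Ddc was -0.14. That covariate was built from 7 of the 8 markers whose sum already ran with Ddc (r = 0.991), so the fit is not a test of neuron content. The part of neuron or glial content in the Ddc value was not tested.

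Kidney and liver also express Ddc, and WT replicate 3 held transcripts of both. Without that library the log2 fold change of Ddc was -0.39. The part of kidney or liver transcripts in the Ddc value was not tested. Slc6a2 encodes the noradrenaline reuptake transporter of sympathetic neurons and was among the 3 most abundant genes of the breakdown and uptake list below. It stood at 7.45, 64.1 and 32.1 CPM in VEGF/LysM and at 136, 16.9 and 136 CPM in WT.

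**Figure D2:**
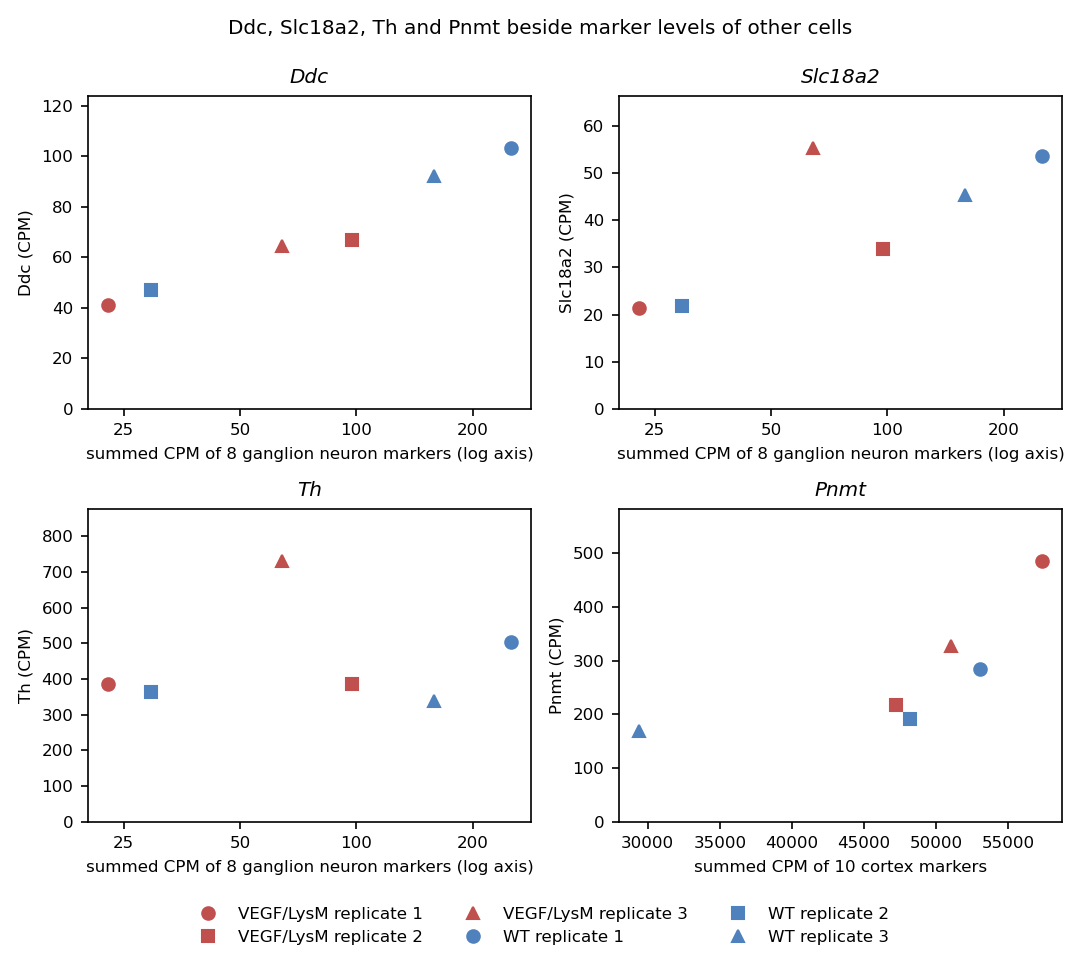
CPM of Ddc, Slc18a2 and Th against the summed CPM of 8 ganglion neuron markers (log axis), and of Pnmt against that of 10 cortex markers, with 1 point per library. Ddc climbs with the neuron markers from VEGF/LysM replicate 1 (41.1 CPM) to WT replicate 1 (103 CPM), while Th is highest in VEGF/LysM replicate 3 (731 CPM), in the middle of that axis.

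The vesicular monoamine transporters load catecholamines into granules in exchange for protons. Slc18a1 encodes VMAT1, the form typical of endocrine cells (ENSMUSG00000036330, chromosome 8, 69037711 to 69089235, minus strand), and was at 44.3, 41.9 and 61.3 CPM in VEGF/LysM and at 42.4, 41.3 and 34.2 CPM in WT. Its groups came close to separating, and the overlap lay between 41.9 CPM in VEGF/LysM replicate 2 and 42.4 CPM in WT replicate 1. The log2 fold change of Slc18a1 was 0.32 ± 0.19 (SE; interval -0.13 to 0.77; edgeR, adjusted p = 0.999), and 0.13 to 0.41 with 1 library left out.

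Slc18a2 encodes VMAT2, the form typical of neurons (ENSMUSG00000025094, chromosome 19, 59260896 to 59296012, plus strand). It was at 21.3, 33.9 and 55.4 CPM in VEGF/LysM and at 53.7, 21.8 and 45.4 CPM in WT, lowest in the 2 libraries with the least ganglion neuron marker. The log2 fold change was -0.13 ± 0.43 (SE; interval -1.15 to 0.90). It turned to 0.13 without VEGF/LysM replicate 1, to 0.14 without WT replicate 1 and to 0.28 with the neuron covariate. The r of Slc18a2 was 0.824 with the neuron marker sum, 0.658 with the Schwann and sustentacular sum and 0.239 with the chromaffin marker sum. For Slc18a1 r was -0.276 with the neuron sum and 0.898 with the chromaffin sum, so the 2 transporters ordered the libraries differently. Between Ddc and Slc18a2 r was 0.852, and between Ddc and Slc18a1 it was -0.267.

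Cyb561 encodes cytochrome b561, which carries electrons from ascorbate into the granule, where Dbh uses them (ENSMUSG00000019590, chromosome 11, 105933702 to 105953336, minus strand). It was at 238, 268 and 317 CPM in VEGF/LysM and at 333, 251 and 188 CPM in WT. The VEGF/LysM values lay within the WT range, and the log2 fold change was 0.094 ± 0.24 (SE), turning to -0.092 without WT replicate 3 and -0.022 without VEGF/LysM replicate 3.

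The transcription factors did not separate the groups either. Phox2a, a homeodomain factor required for noradrenergic cells (ENSMUSG00000007946, chromosome 7, 101818313 to 101822726, plus strand), was at 36.1, 32.3 and 43.8 CPM in VEGF/LysM and at 47.2, 27.6 and 24.4 CPM in WT, a log2 fold change of 0.18 ± 0.28 (SE). WT held both the highest and the lowest value. Without WT replicate 3 the log2 fold change of Phox2a was -0.0031. Its exons overlap those of Inppl1 on the other strand by 95 bases, and reads there cannot be assigned without strand.

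Hand2, a basic helix-loop-helix factor of sympathoadrenal cells (ENSMUSG00000038193, chromosome 8, 57320983 to 57324633, plus strand), was at 55.5, 69.3 and 81.3 CPM in VEGF/LysM and at 100.1, 54.5 and 51.2 CPM in WT. The log2 fold change was 0.0031 ± 0.29 (SE; interval -0.68 to 0.69), and its sign turned with DESeq2 size factors (-0.0077). The exons of Hand2 overlap those of Hand2os1 on the other strand by 461 bases. Hand2os1 had up to 1216 counts in a library, and since the library method does not mark strand, the Hand2 count is uncertain.

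**Figure D3:**
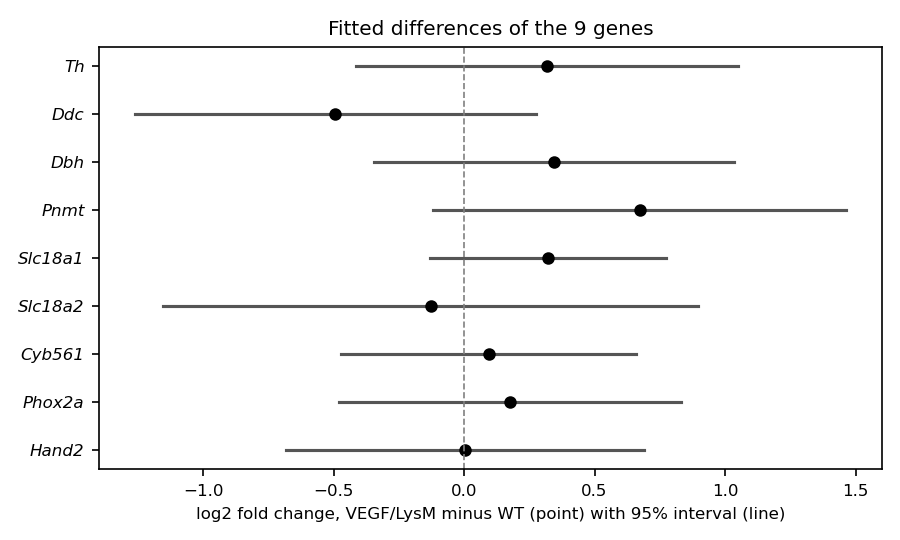
Fitted log2 fold change of each gene, VEGF/LysM minus WT, as a point with its 95% interval as a line and 0 as the dashed line. All 9 intervals contain 0, with Pnmt (0.67) and Ddc (-0.49) farthest from it.

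Levels of different genes were set side by side per length of exons, as CPM per kilobase. In VEGF/LysM the means ran from Pnmt (297 ± 117) through Th (212 ± 84.3), Dbh (169.7 ± 65.0), Cyb561 (75.1 ± 10.9), Hand2 (29.2 ± 5.5), Phox2a (18.4 ± 2.87), Ddc (12.9 ± 3.18) and Slc18a1 (9.10 ± 1.96) down to Slc18a2 (7.06 ± 3.30; SD, n = 3). In WT they ran from Pnmt (186 ± 52.8) through Th (170.0 ± 38.0), Dbh (133 ± 23.3), Cyb561 (70.4 ± 19.9), Hand2 (29.2 ± 11.6), Ddc (18.1 ± 6.67), Phox2a (16.2 ± 6.07) and Slc18a2 (7.71 ± 3.17) down to Slc18a1 (7.28 ± 0.831). Pnmt, Th and Dbh formed the top of both orders with ranges that overlapped, and Cyb561 lay below the range of each of them and above that of every gene ranked after it. Hand2, Phox2a and Ddc had separate ranges in VEGF/LysM and overlapping ranges in WT, and the ranges of the vesicular transporters overlapped in both groups. Ddc was thus the least abundant of the 4 enzymes per length, at 0.0467 to 0.0915 of Th in VEGF/LysM and 0.0689 to 0.144 of Th in WT.

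None of the 8 ratios to Th passed between the groups (two-sided exact permutation tests, p from 0.2 for Ddc to 1 for Phox2a, adjusted p over the 8 ratios at least 0.914). No two-sided exact permutation test of 3 against 3 can give p below 0.1, so these tests could not pass. Mean log2 ratios differed by -0.72 for Ddc, -0.41 for Slc18a2, -0.22 for Hand2, -0.15 for Cyb561, -0.043 for Phox2a, 0.023 for Dbh and 0.036 for Slc18a1. With 1 library left out the differences ranged from -1.01 to -0.47 for Ddc and -0.74 to -0.16 for Slc18a2, both nearest 0 without WT replicate 3, and from -0.38 to -0.039 for Hand2, nearest 0 without VEGF/LysM replicate 3. Without both replicates 3 the Ddc to Th difference was -0.27. Dividing by Th narrowed the spread over the 6 libraries for 7 genes and widened it for Ddc. The SD of log2 values over the 6 libraries was 0.0973 for the Dbh to Th ratio against 0.399 for Dbh CPM, and 0.208 for the Slc18a1 to Th ratio against 0.274 for Slc18a1 CPM. For Ddc it was 0.609 for the ratio against 0.52 for CPM, and for Pnmt 0.539 against 0.562.

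**Figure D4:**
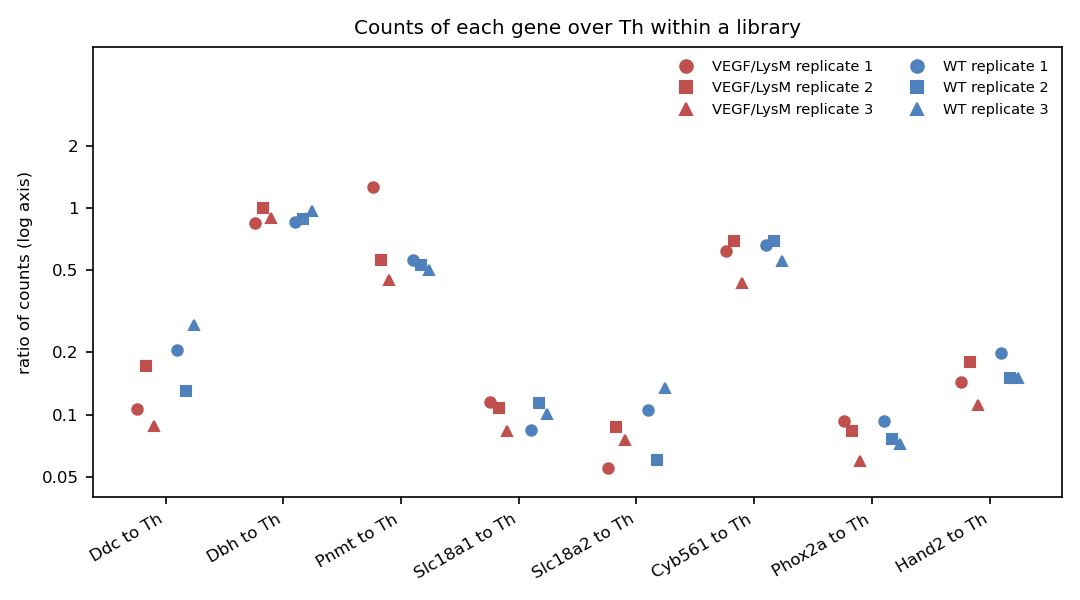
Ratio of each gene's count to that of Th within a library (log axis), VEGF/LysM to the left of WT for each gene, 1 point per library. Dbh to Th stays between 0.848 and 1.0, Pnmt to Th reaches 1.26 in VEGF/LysM replicate 1 and lies between 0.447 and 0.563 elsewhere, and Ddc to Th spans 0.0881 to 0.272.

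The genes most like Th over the 6 libraries, by the same rule as for Pnmt, were Cinp (r = 0.994), Ankrd24 (0.99), Tor1b (0.989), Ptprn (0.988) and Slc35b3 (0.986). These too were the highest of many genes over 6 points, where r this high can arise without a link. Ptprn, a protein of dense-core granules, was at 99.7, 93.5 and 167 CPM in VEGF/LysM and at 128, 87.8 and 79.5 CPM in WT. The largest correlation among the 9 genes was that of Th with Dbh (0.972), and the lowest was that of Ddc with Pnmt (-0.43).

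Other genes of the pathway were taken from lists chosen with earlier results of these data known, and none passed over all genes. Of 14 genes that supply cofactors (tetrahydrobiopterin, pyridoxal phosphate, S-adenosylmethionine and copper), 0 were called, 5 lay above 0 and 9 below, with a median log2 fold change of -0.30. Gch1, the first enzyme of tetrahydrobiopterin synthesis, was at 111, 132 and 142 CPM in VEGF/LysM and at 141, 114 and 203 CPM in WT. Ahcy, which clears the product of methyl transfer, was at 58.1 to 71.6 CPM in VEGF/LysM and at 67.9, 62.8 and 1008 CPM in WT, so its difference lay in WT replicate 3, the library with hepatocyte markers. Mat2a, which makes S-adenosylmethionine, was at 222 to 377 CPM in VEGF/LysM and 259 to 292 CPM in WT.

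Of 7 genes for breakdown and uptake described here, 6 were tested and 0 called, with 3 above 0 and 3 below. The monoamine oxidase gene Maoa was at 65.8 to 75.3 CPM in VEGF/LysM and 68.1 to 100.7 CPM in WT. Maob, the other monoamine oxidase gene, was at 31.0, 52.3 and 34.3 CPM in VEGF/LysM and at 48.5, 41.8 and 224 CPM in WT, so its high WT value lay in WT replicate 3, the library with hepatocyte markers. The groups overlapped for both.

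Of 12 further regulators of chromaffin genes, 11 were tested and 0 called, with 8 above 0 and a median of 0.23. Egr1, an immediate early factor known to act on the Pnmt promoter, was at 81.2, 83.3 and 442 CPM in VEGF/LysM and at 159, 33.8 and 109 CPM in WT, highest in VEGF/LysM replicate 3. Nr3c1, the glucocorticoid receptor, was at 55.9, 52.1 and 51.2 CPM in VEGF/LysM and at 41.2, 59.4 and 87.6 CPM in WT. Gata2 was at 49.6 to 54.4 CPM in VEGF/LysM and 36.9 to 61.8 CPM in WT.

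Of 8 receptors that chromaffin cells use, 0 were called, with 3 above 0 and 5 below. Adcyap1r1, the receptor of the peptide PACAP, was at 75.0, 67.7 and 98.6 CPM in VEGF/LysM and at 76.1, 68.0 and 55.6 CPM in WT. The nicotinic receptor subunit Chrna3 was at 14.5 to 31.6 CPM in VEGF/LysM and 21.7 to 35.4 CPM in WT, and Chrnb4 at 7.15 to 16.0 CPM in VEGF/LysM and 11.8 to 15.5 CPM in WT. Both had their lowest value in VEGF/LysM replicate 1. The groups of Chrna7, named after its values were seen, did not overlap, as for 3.54% of all genes in that direction. It was at 13.0, 13.0 and 23.1 CPM in VEGF/LysM and at 9.10, 12.2 and 8.39 CPM in WT (edgeR, unadjusted p = 0.0485, adjusted p = 0.999). Of 7 genes of the proton pump that powers granule loading, 0 were called, and their log2 fold changes lay between -0.21 and 0.075. The 3 most abundant were Atp6ap1, at 254 to 272 CPM in VEGF/LysM and 211 to 294 CPM in WT, Atp6v1h, at 169.9 to 221 CPM in VEGF/LysM and 144 to 234 CPM in WT, and Atp6v1b2, at 172 to 189 CPM in VEGF/LysM and 174 to 215 CPM in WT. The 10 chromaffin markers outside the pathway had 0 called, 7 above 0 and a median of 0.28. Chga, the granin that fills the granule, was at 2065, 2168 and 3132 CPM in VEGF/LysM and at 2653, 1923 and 1248 CPM in WT.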

How the data were processed

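Per the labels' protocols, RNA of high integrity from fresh glands went into libraries of the Smart-seq2 type, without strand information. The submitters' processing notes name the tools kallisto and DESeq2 1.36.0 and the build mm10 but not their roles. The authors deposited 1 table of raw whole-number counts per gene and library. The step that gave whole numbers is not stated in them.

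Columns were matched to samples by title and genes to symbols by Ensembl identifier. edgeR 4.0.16 (R 4.3.3) scaled counts by TMM (factors 0.84 to 1.05) after filterByExpr (minimum count 10, total 15) and compared the groups with its quasi-likelihood test and no covariate. The edgeR steps were tested on simulated data. Benjamini-Hochberg adjustment ran over 16300 genes, with a threshold of 0.05. Ratios were tested with exact permutation (scipy 1.17.1). Exon lengths and coordinates are from GENCODE M21 (GRCm38, which mm10 names). Genes near 1 CPM rest on few counts.

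The genes and lists were chosen with earlier results of these data known. The text names the 9 genes, the 3 most abundant genes of each pathway list and those most like Th or Pnmt. Beside these it names marker genes and a gene said to be named after its values were seen. Alternatives used limma 3.58.1 and DESeq2 1.42.0, other scalings and filters, left-out libraries, a replicate block and covariates. Some genes of the catecholamine lists are not reported here. No libraries were identical. Deviations of same-numbered samples from their group means correlated at 0.064, -0.014 and 0.25, within the range of the other pairs (-0.251 to 0.319).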

Additional observations from a re-analysis of the deposited data

How the results depend on the processing

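No catecholamine gene passed over all genes under any alternative run. The count of all genes called was 0 in each fit except DESeq2, which called 3, and the fit without WT replicate 3, which called 1, so that leaving out 1 library gave 0 to 1. With the replicate block, edgeR called 0 genes (270 at an unadjusted p under 0.05, against 459 without it), no direction among the 9 genes turned, and the Pnmt to Th difference stayed at 0.36. The replicate numbers were taken as names, since deviations of same-numbered samples correlated at 0.064, -0.014 and 0.25. Ddc, Pnmt and Slc18a1 kept their direction in every alternative, with leave-one-out ranges of -0.77 to -0.27, 0.32 to 0.93 and 0.13 to 0.41. The number of the 9 genes below 0, which was 2, became 7 without both replicates 3, 4 with a chromaffin marker covariate, 1 with the ganglion neuron covariate (chosen after seeing the data), and 1 to 6 with 1 library left out. Without both replicates 3 the log2 fold change was -0.16 for Th, -0.067 for Dbh, -0.20 for Cyb561, -0.12 for Phox2a and -0.30 for Hand2. With the chromaffin covariate it was -0.039 for Cyb561 and -0.16 for Hand2, and with the neuron covariate 0.28 for Slc18a2. limma-voom with sample weights gave -0.015 for Cyb561 and 0.012 for Slc18a2. Hand2 gave -0.0077 with DESeq2 size factors, -0.0013 with no filter, -0.0016 with 1 CPM in 3 libraries and -0.0070 in DESeq2. Leave-one-out log2 fold changes ran from -0.057 to 0.52 for Th, -0.0069 to 0.52 for Dbh, -0.54 to 0.14 for Slc18a2, -0.092 to 0.33 for Cyb561, -0.0031 to 0.53 for Phox2a and -0.17 to 0.38 for Hand2. Differences in log2 ratio to Th ran from -0.084 to 0.67 for Pnmt, -0.045 to 0.077 for Dbh, -0.081 to 0.17 for Slc18a1, -0.29 to 0.049 for Cyb561 and -0.18 to 0.14 for Phox2a. Over the chromaffin marker sum in place of Th, Cyb561 kept its direction, with a difference of -0.26. Its p was 0.1, the smallest possible, and the other ratios had p of 0.2 to 0.8 (two-sided exact permutation tests, unadjusted). In the same setting the difference turned to -0.087 for Dbh and -0.073 for Slc18a1, and without both replicates 3 the Phox2a to Th difference was 0.068. The causes of these turns were not tested. With 3 samples a group, intervals were wide, with a median reach of 0.61 on the log2 scale on each side.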
